A study of Mus musculus with 4 samples.

Results

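Promoters whose open chromatin spans 1000 bp or more were examined in quiescent satellite cells sorted from mdx and from wild type mice. A wide promoter here is a deposited ATAC-seq region on an autosome that carries a gene name, whose centre lies within 1000 bp of that gene's start and whose end minus start is at least 1000 bp. Of 35019 regions in the table, 9731 were promoters by this rule, and 576 of them, 5.92%, were wide. The other 9155 are called narrower promoters. Satellite cells, the resident stem cells of skeletal muscle, were sorted by flow cytometry from mdx mice, which lack functional dystrophin and serve as a model of Duchenne muscular dystrophy, and from wild type mice. There were 2 libraries per group, each made from 10000 to 20000 sorted cells, and Tn5 transposase acted for 30 min at 37 °C. The series design names 3 mice per condition. The sources used here give no strain, age or sex. No label ties a library to a mouse of its own, so every p-value measures only how far these libraries spread, which may be technical.

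In ATAC-seq, Tn5 cuts DNA that is not wrapped in nucleosomes, so reads pile up over active promoters and enhancers. Many vertebrate genes that are active in most tissues, and many developmental regulators, start inside CpG islands, stretches where the CpG dinucleotide has not been depleted. Open chromatin at such starts is often broad and can hold several start sites in both directions. Immediate early genes such as Jun and Fos respond quickly when muscle is injured or dissociated.

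The sequences below are the 300 bases from 250 before to 50 after the gene's start at wide promoters that the results turn on. They come from RefSeq (GRCm38.p6) and show how densely CpG occurs at each, with every CpG in capitals, 5′ to 3′ on the strand of the gene. Among wide promoters that passed the test below and have a sequence, Sptb, Fam181b and Jarid2 had the lowest log2 fold changes and Gpr176 the highest, and Pdk4 and Pja2 had the highest read density of all wide promoters. Their mm10 windows are chr12:76710498-76710797, minus strand (Sptb), chr7:93079629-93079928, plus strand (Fam181b), chr13:44730524-44730823, plus strand (Jarid2), chr2:118373370-118373669, minus strand (Gpr176), chr6:5496229-5496528, minus strand (Pdk4), and chr17:64331834-64332133, minus strand (Pja2).
Sptb: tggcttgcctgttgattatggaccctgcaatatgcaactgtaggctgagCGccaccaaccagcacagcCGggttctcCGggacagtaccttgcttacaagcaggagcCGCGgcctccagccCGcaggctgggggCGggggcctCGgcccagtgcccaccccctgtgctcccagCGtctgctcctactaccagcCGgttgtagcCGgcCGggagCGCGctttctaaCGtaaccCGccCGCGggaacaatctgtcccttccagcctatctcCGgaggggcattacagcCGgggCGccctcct
Fam181b: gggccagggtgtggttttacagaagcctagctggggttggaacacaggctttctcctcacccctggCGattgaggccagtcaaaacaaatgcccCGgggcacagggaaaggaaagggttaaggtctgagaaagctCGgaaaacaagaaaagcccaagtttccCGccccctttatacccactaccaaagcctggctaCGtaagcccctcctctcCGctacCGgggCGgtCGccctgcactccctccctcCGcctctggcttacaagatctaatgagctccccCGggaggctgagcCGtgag
Jarid2: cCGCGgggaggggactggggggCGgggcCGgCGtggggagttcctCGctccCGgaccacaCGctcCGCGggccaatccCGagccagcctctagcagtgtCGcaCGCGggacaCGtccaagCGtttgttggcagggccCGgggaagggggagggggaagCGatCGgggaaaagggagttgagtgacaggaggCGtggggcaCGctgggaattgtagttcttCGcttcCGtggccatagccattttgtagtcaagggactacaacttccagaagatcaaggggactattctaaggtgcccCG
Gpr176: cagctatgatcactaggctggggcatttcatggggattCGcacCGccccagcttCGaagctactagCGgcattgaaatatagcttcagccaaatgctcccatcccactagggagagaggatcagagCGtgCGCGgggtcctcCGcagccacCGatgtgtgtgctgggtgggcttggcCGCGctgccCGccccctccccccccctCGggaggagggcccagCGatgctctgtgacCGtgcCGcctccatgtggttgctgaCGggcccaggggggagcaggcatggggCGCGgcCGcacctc
Pdk4: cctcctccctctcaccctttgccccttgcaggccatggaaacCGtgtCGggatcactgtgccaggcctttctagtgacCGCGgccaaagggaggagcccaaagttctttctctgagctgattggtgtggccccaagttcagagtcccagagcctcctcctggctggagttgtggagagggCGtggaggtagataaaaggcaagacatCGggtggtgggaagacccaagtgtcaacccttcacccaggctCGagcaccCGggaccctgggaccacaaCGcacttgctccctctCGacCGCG
Pja2: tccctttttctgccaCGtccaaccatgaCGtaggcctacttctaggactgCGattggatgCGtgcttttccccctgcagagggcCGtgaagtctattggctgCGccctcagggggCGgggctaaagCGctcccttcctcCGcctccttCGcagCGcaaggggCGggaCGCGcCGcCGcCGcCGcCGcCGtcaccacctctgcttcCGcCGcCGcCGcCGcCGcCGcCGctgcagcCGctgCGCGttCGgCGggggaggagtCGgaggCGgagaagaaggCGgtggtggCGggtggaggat
The Pja2 window holds 37 CpGs (observed over expected 1.01), that of Jarid2 24 (0.810), Sptb 21 (0.657), Gpr176 20 (0.606), Fam181b 12 (0.468) and Pdk4 12 (0.436). The wide region of Sptb starts 99 bp downstream of the gene's start and does not overlap the window printed.

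The wide promoters were richer in CpG than the narrower ones. Windows of the kind printed above were found in the RefSeq table for 446 of the 554 wide promoters outside chromosome 18, 80.5%, and for 7228 of the 8887 narrower ones, 81.3%. The window overlapped the open region at 418 of the 446 wide and 6515 of the 7228 narrower promoters. Windows that did not overlap were kept. Over all 576 wide promoters the share was 77.4%, which is under 80%, so base composition is described outside chromosome 18. The median CpG observed over expected was 0.871 at wide promoters (quartiles 0.720 and 0.993) and 0.789 at narrower promoters (quartiles 0.627 and 0.921). It was 0.389 over all 31396 such windows of the table on these autosomes. GC content had a median of 69.3% at wide promoters and 62.0% at narrower promoters. A ratio above 0.6 was found at 88.8% of wide and 78.1% of narrower promoters. The median rose with width over the narrower classes, with 0.692 under 250 bp and 0.863 at 750 to 999 bp, and lay between 0.868 and 0.886 in the 3 classes of wide promoters. These are descriptions of sequence, with no test.

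**Figure D1:**
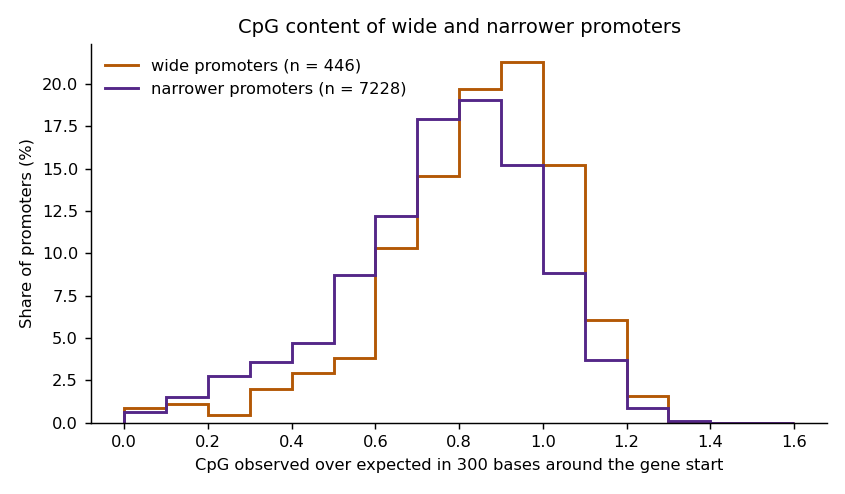
Share of promoters (vertical axis, percent of the class) by CpG observed over expected in 300 bases around the gene start (horizontal axis), for 446 wide and 7228 narrower promoters outside chromosome 18. The wide promoters lie to the right of the narrower ones, with medians of 0.871 and 0.789.

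Motif matches were counted in the same windows, on both strands and as descriptions only. The GC box GGGCGG, bound by factors of the Sp family, was found in 79.8% of wide promoters, 70.1% of narrower promoters and 36.0% of all windows. The TATA motif TATAAA was found in 5.83% of wide and 6.34% of narrower promoters, against 13.6% of all windows. The CCAAT box occurred in 35.0% of wide and 39.4% of narrower promoters (37.3% of all windows), and the ETS motif CCGGAAG in 14.1% and 18.7% (9.0% of all windows). The AP-1 motif TGACTCA was found in 2.24% of wide and 2.92% of narrower promoters (5.26% of all windows), and the cAMP response element TGACGTCA in 2.91% and 4.01% (1.83%). The E-box CACGTG was at 8.97% and 10.4% (7.14%). Matches of different motifs in a window may overlap.

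Another gene's RefSeq start on the opposite strand, up to 1000 bp upstream, was found for 89 of 554 wide promoters (16.1%) and for 1126 of 8887 narrower promoters (12.7%), both outside chromosome 18. Among the genes named by rule, Jun faces Junos, Crim1 faces Gm32282 and Hnrnpdl faces Enoph1. Reads at such a shared region cannot be assigned to either gene.

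The wide promoters belonged to 575 gene names, and 575 of the 576 regions were linked to protein-coding genes. Their median width was 1111 bp, with quartiles of 1047 and 1230.5 bp, against a median of 522 bp at narrower promoters. Only 39 were 1500 bp or wider. Just inside the threshold, Arhgap10, Ell2 and Pabpc1 had regions of 1001 bp, and just outside it Tra2b, Cdk9 and Ino80 had regions of 999 bp. Arhgap10 held 377 and 229 scaled reads in mdx, against 398 and 370 in wild type, Ell2 held 949 and 890 against 871 and 785, and Pabpc1 held 427 and 600 against 851 and 765. Tra2b held 346 and 235 against 299 and 315, Cdk9 held 164 and 167 against 236 and 195, and Ino80 held 173 and 282 against 282 and 307. The share of promoters that were wide ran from 2.47% on chromosome 11 to 9.57% on chromosome 3.

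Wide regions reached further to both sides of the gene's start. The median reach was 488 bp upstream and 659 bp downstream at wide promoters, against 221 and 284 bp at narrower promoters. The region covered the start in 540 of 576 wide promoters (93.8%) and in 84.7% of narrower ones. The centre lay downstream of the start in 63.2% of wide and 57.6% of narrower promoters. In 35 wide promoters the deposited fraction of the region inside the gene body was 1. The region of Egr1, a zinc finger transcription factor of the immediate early class, runs almost wholly into the gene, with 12 bp upstream and 1809 bp downstream of its start. The region of Larp1b, a La-related RNA-binding protein, runs the other way, with 1092 bp upstream and 61 bp downstream. Another listed region lay within 5000 bp of 9.20% of wide and 16.7% of narrower promoters.

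Wide promoters were more accessible per base as well as longer. Values are scaled reads, the authors' reads per region multiplied by 1 factor per library and rounded, and density is the level per kb of region, while a level not given per kb is the sum over the region and grows with its width. The median density was 385 and 402 scaled reads per kb in mdx and 491 and 460 in wild type at wide promoters. At narrower promoters it was 194 and 209 in mdx, against 251 and 218 in wild type. Wide promoters were 8 of the 10 promoter regions with the most scaled reads and 51 of the top 100, but 1 of the top 10 and 14 of the top 100 per kb. The width comes from the authors' region calling on reads, and the sources used here do not say which libraries it used, so width and level share their source.

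**Figure D2:**
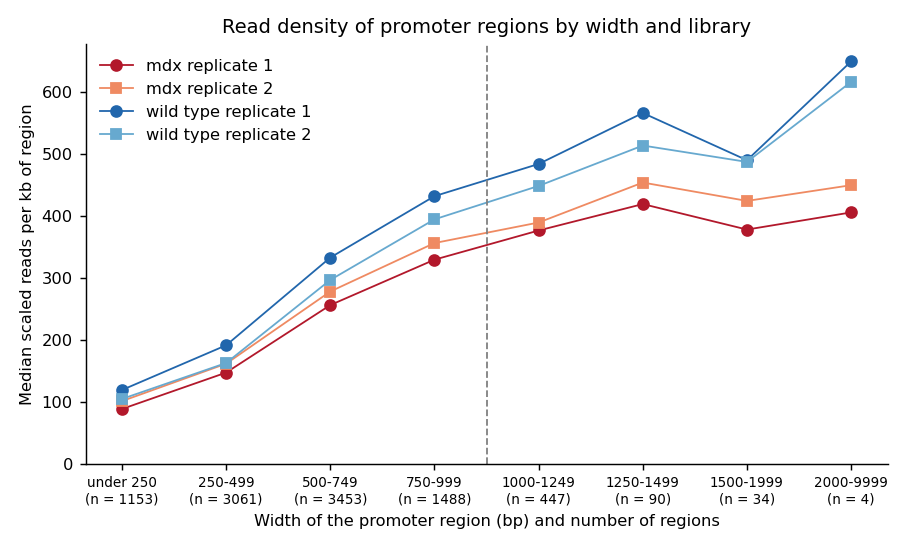
Median scaled reads per kb of region (vertical axis) by width class of the promoter region (horizontal axis, with the number of regions), 1 line per library, with a dashed line at 1000 bp. Density is higher at each step up to 1250 to 1499 bp in every library. Both wild type libraries lie above both mdx libraries in every width class, narrower and wide.

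The wide promoters with the highest density were those of Pdk4, Pja2, Ripk2, Eny2 and Sp4. Pdk4, a mitochondrial kinase that restrains pyruvate dehydrogenase and so glucose oxidation, held 1899 and 2081 scaled reads in mdx, against 2698 and 2655 in wild type. The groups did not overlap, and the difference did not pass (-0.43 in log2, SE 0.12, limma, adjusted p = 0.0566). Pja2, a ubiquitin ligase, held 1260 and 1631 in mdx and 2293 and 1798 in wild type (-0.50, limma, adjusted p = 0.0870). Ripk2, a kinase of the NOD receptor pathway, held 1419 and 1451 against 1882 and 1768 (-0.35, adjusted p = 0.121), and Sp4, an Sp family transcription factor, held 1577 and 1753 against 2255 and 2134 (-0.40, adjusted p = 0.0806). Each of these was low in both mdx libraries, as were 73.2% of wide promoters and 25.9% of all tested regions. Pdk4 and Sp4 passed as lower with voom in place of limma (adjusted p = 0.00791 and 0.0238). With the medians of the regions that are no promoters set equal in the 4 libraries, Pdk4, Pja2, Ripk2 and Sp4 were among 263 wide promoters that passed as lower (limma). Eny2, a subunit shared by the SAGA coactivator and an mRNA export complex, held 1488 and 1411 in mdx and 1454 and 1459 in wild type (-0.007, adjusted p = 0.981), so its groups overlapped.

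Across libraries, wide promoters were read with less counting error than narrower ones. The listed regions held 3208279 and 3607443 recovered reads in mdx, against 3693345 and 8165578 in wild type. A wide promoter held a median of 322 and 400 recovered reads in mdx, against 462 and 1067 in wild type, which is a counting error of 5.57% and 5.0% in mdx and 4.65% and 3.06% in wild type. For narrower promoters it was 11.9% and 10.4% in mdx and 9.73% and 6.63% in wild type. These errors cover counting only. The recovered reads and errors of wild type replicate 2 rest on a scaling factor that is less certain than those of the other libraries. The libraries also differed in where their reads fell. Wide promoters held 7.97% and 8.50% of nuclear reads for mdx, against 9.97% and 9.85% for wild type, and narrower promoters 38.7% and 42.3% in mdx and 47.9% and 45.0% in wild type. All other nuclear regions held 53.4% and 49.2% in mdx, against 42.2% and 45.2% in wild type. Mitochondrial reads made up 17.7% and 13.7% in mdx and 14.0% and 9.31% in wild type. The share of nuclear reads in promoters was therefore lower in both mdx libraries than in both wild type libraries. This difference was not tested, nor was its part in the differences below.

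Most wide promoters were less accessible in mdx than in wild type cells, and 39 of them passed the test as lower. Sptb, Fam181b, Bend7 and Jarid2 were 2.02-fold to 2.63-fold lower, and Gpr176 and Cdh2 were the 2 that passed as higher, 2.63-fold and 1.69-fold. Of 574 wide promoters tested with limma, 6.79% fell and 0.348% rose at an adjusted p under 0.05. Over all 33161 tested regions, 4.18% were called in either direction, 0.881% as lower and 3.3% as higher, so the lower share among wide promoters is above the background and the higher share below it. Over both directions 7.14% of wide promoters were called. Of 9027 narrower promoters, 138 fell (1.53%) and 41 rose (0.454%), and of 23560 other regions 0.488% fell and 4.47% rose. An unadjusted p under 0.05 was found for 43.6% of wide promoters and 23% of all tested regions. The median log2 fold change, that is, mdx minus wild type of log2(value + 1), was -0.31 at wide promoters, -0.26 at narrower promoters, 0.17 at all other regions and -0.01 over all tested regions. It was below 0 at 521 of 574 wide promoters (90.8%), 76.4% of narrower promoters and 39.8% of other regions. Both mdx libraries lay below both wild type libraries at 420 wide promoters (73.2%) and above them at 28 (4.88%), against 43.9% and 8.87% of narrower promoters and 25.9% and 26.8% of all tested regions.

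The number of lower calls, the median and the share below 0 rested on the scaling. With the medians of narrower promoters set equal in the 4 libraries, 18 wide promoters were lower and 7 higher, and with the medians of the regions that are no promoters set equal 263 were lower and 1 higher. The median at wide promoters was -0.09 with the first of these, with 376 of 574 below 0, and -0.64 with the second, with 563 below 0. Cyclic loess gave a median of -0.09, 374 below 0, 21 lower and 8 higher. The median of all tested regions, -0.01 as reported, was 0.21 with narrower promoter medians set equal and -0.33 with those of the regions that are no promoters. Of all calls, 78.9% were higher as reported, 93.4% with the first of these scalings and 27.7% with the second.

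**Figure D3:**
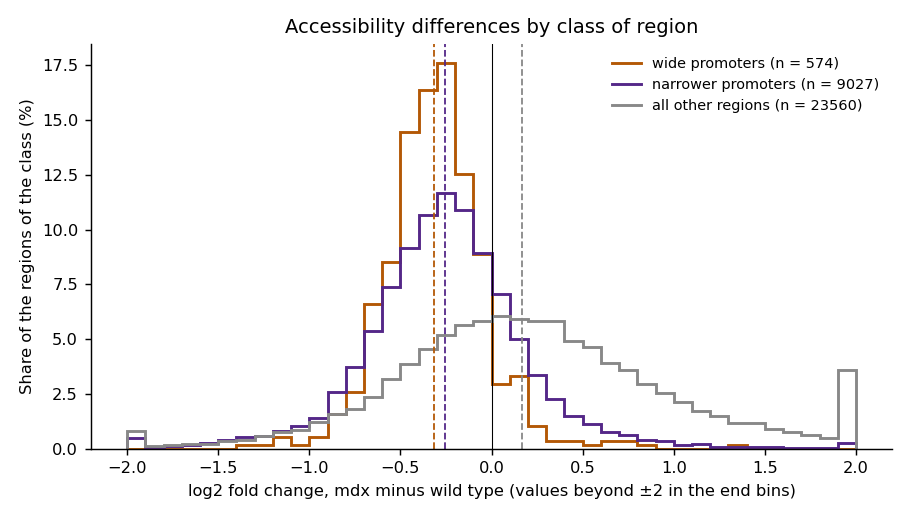
Share of regions (vertical axis, as percent of each class) against their log2 fold change in mdx over wild type (horizontal axis, values beyond 2 in either direction placed in the end bins), for 574 wide promoters, 9027 narrower promoters and 23560 other tested regions. Dashed lines mark the medians, -0.31, -0.26 and 0.17, and the wide promoters form the narrowest distribution.

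Wide promoters varied less among themselves than narrower ones. The SD of the log2 fold change over regions was 0.281 at wide promoters and 0.484 at narrower promoters. The difference between the 2 mdx libraries had an SD of 0.237 over wide and 0.510 over narrower promoters, and that between the 2 wild type libraries 0.202 and 0.414. The median standard error was 0.172 at wide and 0.271 at narrower promoters. At like levels the 2 classes were close in standard error. It was 0.167 at wide and 0.172 at narrower promoters between 400 and 699 mean scaled reads, and 0.135 and 0.140 from 1000 on. The shares called in the classes above therefore rest on unequal errors.

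Wide promoters were also set against narrower ones library by library, and neither measure below passed its test. The median log2 value of wide promoters minus that of narrower promoters was 2.17 and 2.09 in mdx and 2.12 and 2.22 in wild type, so the groups overlapped. The mean difference, mdx minus wild type, was -0.04, with an SD between libraries of 0.06 (exact permutation test, two-sided, p = 0.667). Wide promoters took 17.1% and 16.7% of promoter reads in mdx, against 17.2% and 17.97% in wild type. The groups did not overlap here, and the means of 16.9% and 17.6% differed by -0.689 percentage points with an SD of 0.411 (exact permutation test, two-sided, p = 0.33). With 2 libraries against 2, 0.33 is the smallest p that this test can give, so no difference could pass. Both directions turned with cyclic loess, to 0.23 for the log2 difference and to 0.742 percentage points for the share. Leaving out wild type replicate 2 gave a share difference of -0.320, leaving out wild type replicate 1 gave -1.06, and the log2 difference ranged between -0.09 and 0.01 with 1 library left out.

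The classes were also set side by side at like levels. Between 400 and 699 mean scaled reads, 201 wide promoters had a median of -0.29, with 9 lower (4.48%), and 698 narrower promoters a median of -0.28, with 27 lower (3.87%). Between 700 and 999, 99 wide promoters had a median of -0.35, with 14 lower (14.1%), and 176 narrower ones a median of -0.27, with 8 lower (4.55%). From 1000 on, 67 wide promoters had a median of -0.35, with 8 lower (11.9%), and 63 narrower ones a median of -0.31, with 2 lower (3.17%). From 100 scaled reads on, the median of each class lies within the quartiles of the other in every band. The difference in the share called was not tested.

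**Figure D4:**
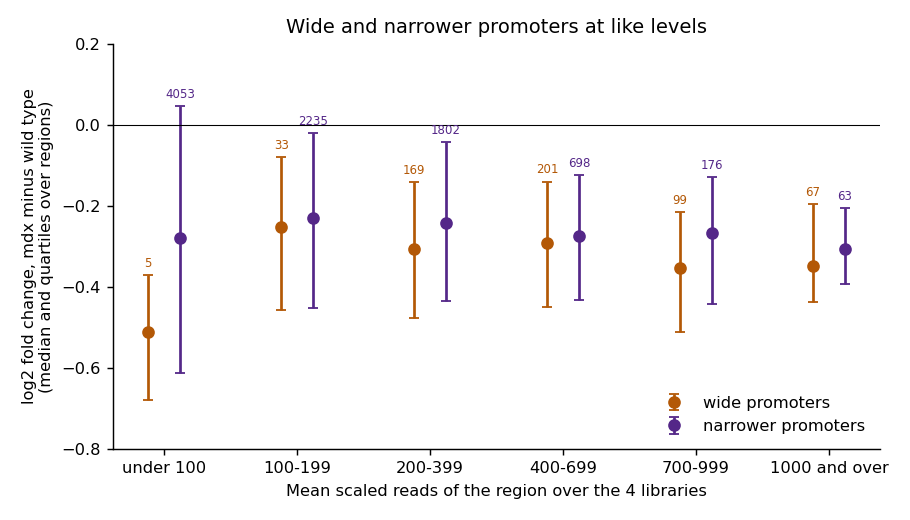
Median log2 fold change in mdx over wild type (vertical axis, points), with quartiles over regions (bars), by mean scaled reads of the region (horizontal axis), for wide and narrower promoters, with the number of regions above each bar. All medians lie below 0, between -0.23 and -0.51, and the quartile ranges of the classes overlap in every band.

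Within the wide promoters, the log2 fold change had correlations near 0 with width and with level. Over the 573 tested wide promoters under 10 kb, the correlation of log2 fold change with log2 width was 0.02 (Pearson; Spearman -0.05) and with log2 mean level -0.06 (Spearman -0.06). Width and level themselves correlated at 0.281 (Spearman 0.268). These are descriptions over regions that share the 4 libraries. By width, the median was -0.32 at 1000 to 1249 bp (446 regions), -0.29 at 1250 to 1499 bp (90) and -0.39 at 1500 to 1999 bp (33).

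The 39 wide promoters that fell were between 1.45-fold and 2.63-fold lower, and their median mean level was 804 scaled reads, against 498 for all wide promoters. In the 5 genes Sptb, Fam181b, Bend7, Msl2 and Sp3 the call held in all 12 alternative settings that kept the 4 libraries. Every other lower call ended in some of these settings, also where this is not repeated below. Of the 39 calls, 21 ended with cyclic loess, 21 with narrower promoter medians set equal, 33 with no filter on low values and 8 with a pseudocount of 0.1. With any 1 of the 4 libraries left out, 1 group holds a single library that is assumed to vary like the other group. Then 0 of all 33161 tested regions passed by limma, so the 0 among wide promoters says nothing about them in particular, and 58 to 155 wide promoters had an unadjusted p under 0.05. The threshold and the test are those above, and n = 2 libraries per group for every mean ± SD below.

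**Figure D5:**
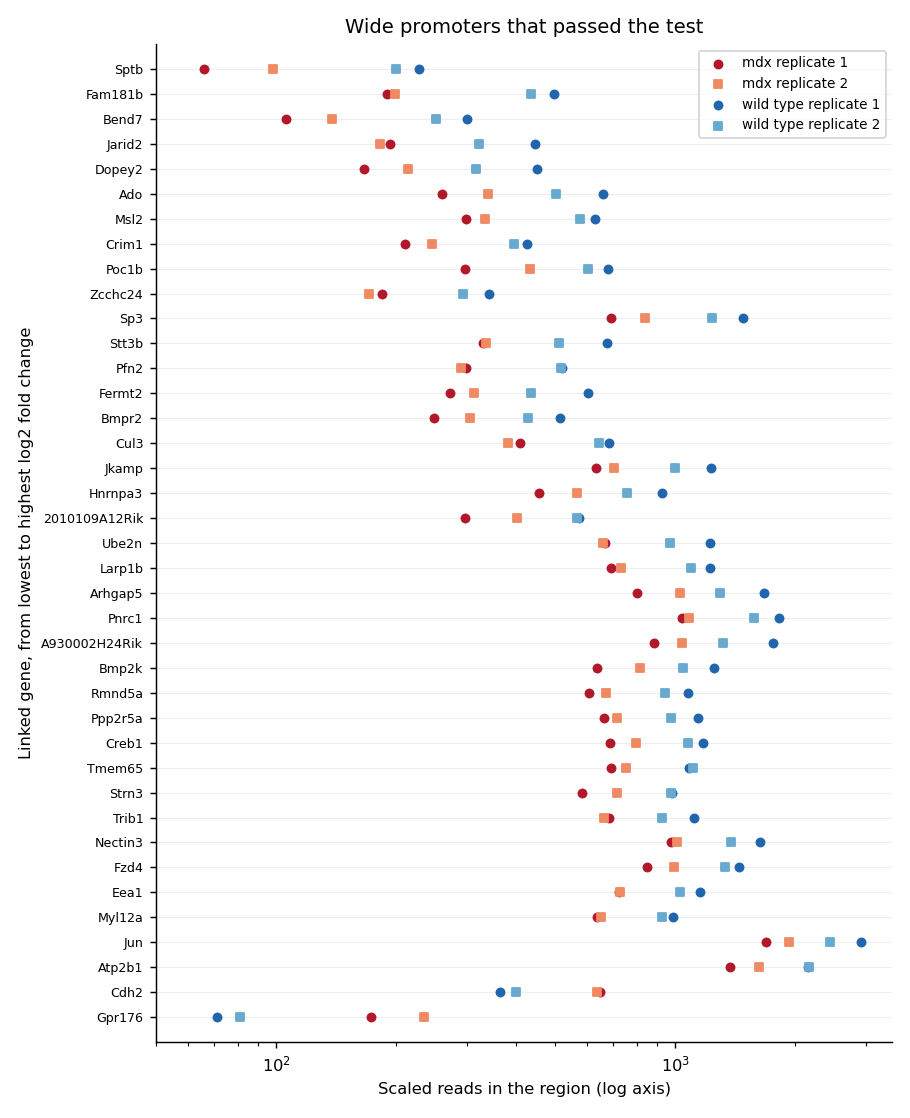
Scaled reads (horizontal log axis) in 39 of the 41 wide promoters that passed the test, labelled by linked gene and ordered by log2 fold change, 1 point per library. In the top 37 rows both mdx libraries lie left of both wild type libraries, and in the last 2, Cdh2 and Gpr176, they lie right of them.

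Among regulators of transcription and chromatin, the promoter of Jarid2 held 193 and 182 scaled reads in mdx, against 445 and 323 in wild type. Jarid2 is an accessory subunit that recruits Polycomb repressive complex 2. Both mdx libraries were low, with 187.5 ± 7.8 against 384.0 ± 86.3 in wild type, which is -1.01 in log2 (SE 0.21, limma, adjusted p = 0.0243). The call ended with no filter (adjusted p = 0.0525). A second region linked to Jarid2, 3017 bp from its start by its centre, held 54 and 76 in mdx and 140 and 98 in wild type and did not pass (-0.86, limma, adjusted p = 0.122). The promoter of Msl2, a ubiquitin ligase subunit of the MSL histone acetyltransferase complex, held 299 and 333 in mdx, against 629 and 578 in wild type (-0.93, SE 0.17, limma, adjusted p = 0.0151). Sp3, an Sp family factor that binds GC boxes, had the third widest region of all, 2136 bp on chromosome 2 from 72978822 to 72980958. It held 691 and 838 scaled reads in mdx, against 1474 and 1234 in wild type (-0.82, SE 0.15, limma, adjusted p = 0.0163). Creb1, the cAMP response element binding protein, was 1.52-fold lower (limma, adjusted p = 0.0397). Its call ended with cyclic loess, with narrower promoter medians set equal and with no filter.

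Jun, which dimerises with Fos proteins to form AP-1, had the second highest scaled reads of all wide promoters, summed over the region, and a region of 1983 bp on chromosome 4 from 95051472 to 95053455. It held 1689 and 1932 in mdx and 2912 and 2442 in wild type, and the groups did not overlap. In log2 this was -0.56 (SE 0.13, limma, adjusted p = 0.0356). It was -0.14 after cyclic loess, where the call ended (adjusted p = 0.379), and the call also ended with no filter on low values (0.0768). Fos, its AP-1 partner, held 312 and 390 in mdx, against 531 and 560 in wild type, and did not pass (-0.64, limma, adjusted p = 0.0612). Egr1 held 879 and 834 in mdx and 1137 and 1179 in wild type and did not pass (-0.43, limma, adjusted p = 0.0863).

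Among signalling genes, the promoter of Bmpr2, the type II receptor for bone morphogenetic proteins, held 249 and 306 in mdx and 513 and 427 in wild type. In log2 this was -0.76 (SE 0.19, limma, adjusted p = 0.0462), and the call ended with narrower promoter medians set equal (-0.54, adjusted p = 0.0749), with no filter (0.0779) and with a pseudocount of 0.1 (0.0579). Crim1, a transmembrane protein that binds bone morphogenetic proteins, held 210 and 245 in mdx, against 424 and 394 in wild type (-0.85, SE 0.19, limma, adjusted p = 0.0305), and this call too ended with that scaling (-0.62, adjusted p = 0.0532) and with no filter (0.0565). Fzd4, a Wnt receptor, was 1.51-fold lower (limma, adjusted p = 0.0380) and Trib1, a pseudokinase, 1.51-fold (limma, adjusted p = 0.0469). Both calls ended with cyclic loess, with narrower promoter medians set equal and with no filter.

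Among structural and adhesion genes, Sptb, the beta chain of erythrocytic spectrin, had the lowest log2 fold change of all wide promoters that passed. Its region on chromosome 12 from 76709408 to 76710448 held 66 and 98 scaled reads in mdx, against 228 and 200 in wild type, 82.0 ± 22.6 against 214.0 ± 19.8 (-1.40 in log2, SE 0.26, limma, adjusted p = 0.0171). Fermt2, an integrin activator of the kindlin family, held 272 and 313 in mdx, against 606 and 436 in wild type (-0.81, limma, adjusted p = 0.0412). Pfn2, an actin-binding profilin, held 299 and 290 against 520 and 518 (-0.82, limma, adjusted p = 0.0244). Nectin3, a cell adhesion protein, was 1.51-fold lower (limma, adjusted p = 0.0360). The calls of Fermt2, Pfn2 and Nectin3 ended with narrower promoter medians set equal. Those of Fermt2 and Nectin3 also ended with no filter, that of Fermt2 with a pseudocount of 0.1 and that of Nectin3 with cyclic loess.

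Cul3, Ube2n and Rmnd5a, genes of ubiquitin transfer, were also among those that fell. Cul3, the scaffold of a family of ubiquitin ligases, held 409 and 381 in mdx, against 684 and 644 in wild type (-0.75, SE 0.16, limma, adjusted p = 0.0265). Ube2n, a ubiquitin-conjugating enzyme of NF-kB signalling, held 666 and 658 in mdx and 1220 and 972 in wild type (-0.72, SE 0.15, limma, adjusted p = 0.0266). Rmnd5a, a subunit of the CTLH ubiquitin ligase, was 1.58-fold lower (limma, adjusted p = 0.0336). All of these calls ended with no filter. Those of Cul3 and Rmnd5a also ended with narrower promoter medians set equal, and those of Ube2n and Rmnd5a with cyclic loess. The genes of this and the preceding paragraphs that are outside the rule for named genes were chosen after their values were seen. Ubiquitin transfer was no list tested here. The proteasome and ubiquitin list held 27 tested promoter regions, of which 0 were called and 0 were wide.

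The remaining members of the rule that fell were Fam181b, Bend7, Dopey2, Ado, Poc1b and Zcchc24. Fam181b held 189 and 199 scaled reads in mdx, against 497 and 435 in wild type on chromosome 7 from 93079611 to 93080614, the smallest adjusted p of the wide promoters (-1.26, SE 0.19, limma, adjusted p = 0.00763). Bend7, a BEN domain gene, held 106 and 138 in mdx, against 301 and 251 in wild type (-1.18, limma, adjusted p = 0.0201). Dopey2 held 166 and 214 against 450 and 317 (-0.999, limma, adjusted p = 0.0329). Both mdx libraries were low at each of these. Ado, which encodes cysteamine dioxygenase, held 260 and 340 in mdx and 660 and 502 in wild type (-0.95, limma, adjusted p = 0.0248). Poc1b, a centriole protein, held 297 and 432 against 678 and 603 (-0.83, limma, adjusted p = 0.0374), and Zcchc24 held 184 and 171 against 342 and 293 (-0.83, limma, adjusted p = 0.0407). The calls of Dopey2, Ado, Poc1b and Zcchc24 ended with no filter. That of Zcchc24 also ended with narrower promoter medians set equal and with a pseudocount of 0.1. Other genes that fell, by 1.45-fold to 1.77-fold, were Stt3b, Jkamp, Hnrnpa3, 2010109A12Rik, Larp1b, Arhgap5, Pnrc1, A930002H24Rik, Bmp2k, Ppp2r5a, Tmem65, Strn3, Eea1, Myl12a and Atp2b1.

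The wide promoters that rose were those of Gpr176 and Cdh2. Gpr176, an orphan G protein-coupled receptor, held 173 and 234 scaled reads in mdx, against 71 and 81 in wild type, on chromosome 2 from 118373018 to 118374166. It averaged 203.5 ± 43.1 in mdx and 76.0 ± 7.1 in wild type, which is 1.40 in log2 (SE 0.26, limma, adjusted p = 0.0158), and the call held in all 12 alternatives with 4 libraries. Cdh2, N-cadherin, which anchors satellite cells to the muscle fibre, has a region of 1692 bp on chromosome 18. It held 647 and 636 in mdx, against 363 and 398 in wild type (0.75, SE 0.16, limma, adjusted p = 0.0266). That call ended with the medians of the regions that are no promoters set equal (0.43, adjusted p = 0.191) and with no filter (0.0523). Psat1, an enzyme of serine synthesis, had the second highest log2 fold change and did not pass (0.84, limma, adjusted p = 0.0577).

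Gene lists were counted for how many of their promoters were wide, against 5.92% of all promoters. Of the immediate early genes, 5 of 22 promoter regions were wide (Egr1, Fos, Fosl2, Jun and Jund), with a median log2 fold change of -0.46, and by limma Jun fell while 4 did not pass. With voom on recovered reads 3 of the 5 were lower, Jun, Fos (adjusted p = 0.0308) and Egr1 (0.0344). By limma 4 had an unadjusted p under 0.05. To set beside this and the lists below, 13.4% of wide promoters (77 of 574) and 448 of all 33161 tested regions were lower with voom. An unadjusted p under 0.05 by limma was found for 43.6% of wide promoters and 23% of all tested regions. Fosl2 was at -0.46 and Jund at -0.10 (limma, adjusted p = 0.102 and 0.729). Of the TGF-beta and BMP pathway, 7 of 29 were wide (Acvr1, Bmpr1a, Bmpr2, Skil, Smad2, Smad7 and Smurf1), with a median of -0.29, and Bmpr2 fell. With voom 1 of the 7 was lower, and 3 had an unadjusted p under 0.05 by limma. Smad7, an inhibitory SMAD, was at -0.45 and Skil, a corepressor of SMADs, at -0.20, and neither passed (limma, adjusted p = 0.204 and 0.459). Of the Polycomb subunits, 5 of 17 were wide (Bmi1, Eed, Ezh2, Jarid2 and Pcgf5), with a median of -0.37, and Jarid2 fell. With voom 1 of the 5 was lower, and 2 had an unadjusted p under 0.05 by limma. Eed and Ezh2, core subunits of Polycomb repressive complex 2, were at -0.44 and -0.24 and did not pass (limma, adjusted p = 0.140 and 0.453).

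Of the splicing factors, 6 of 22 promoter regions were wide, with a median of -0.27. By limma 0 passed, 1 had an unadjusted p under 0.05, and 0 passed with voom on recovered reads. Among them Srsf5 was at -0.57 and U2af2 at 0.10, with adjusted p of 0.120 and 0.793. Of the heat shock chaperones, 4 of 11 were wide (Dnaja1, Hspa8, Hspd1 and Hsph1), with a median of -0.07, and 0 passed by limma or voom, with 1 at an unadjusted p under 0.05. Hspa8, the constitutive heat shock cognate chaperone, held 1110 and 1028 in mdx and 906 and 1033 in wild type (0.14, limma, adjusted p = 0.582), and its groups overlapped. After cyclic loess Hspa8 passed as higher, as 1 of 8 wide promoters (0.47, limma, adjusted p = 0.0429). Of the satellite cell identity genes, 4 of 30 were wide, Cdh2, Hey1, Itgb1 and Tcf12, and Cdh2 rose. With voom 1 of the 4 was higher and 0 lower, and 3 had an unadjusted p under 0.05 by limma. Higher with voom were 3 of 574 wide promoters and 1550 of all 33161 tested regions. Hey1, a Notch effector that keeps satellite cells quiescent, held 614 and 715 in mdx, against 917 and 872 in wild type (-0.43, limma, adjusted p = 0.116), and Itgb1, integrin beta 1, held 531 and 584 against 854 and 636 (-0.40, adjusted p = 0.190). Neither passed. Both mdx libraries lay below both wild type libraries at each, as at 73.2% of wide promoters and 25.9% of all tested regions. The promoters of Pax7, Myf5 and Myod1, which define the lineage, were between 392 and 506 bp and not wide. None of the 6 satellite marker promoter regions was wide.

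Other lists held at most 2 wide promoters each. SWI/SNF had 2 of 15 (Arid2 and Smarcc2, 13.3%) and the homeobox genes 2 of 20 (Hoxd8 and Pbx3, 10%). The housekeeping genes had 2 of 15 (Actb and Eef1a1, 13.3%), NuRD 1 of 11 (Hdac2, 9.09%) and the ribosomal proteins 1 of 38 (Rpl7, 2.63%). Of these shares, only the last was under the 5.92% of all promoters. By limma or voom, 0 of these 8 passed. An unadjusted p under 0.05 was found for 1 region each of SWI/SNF, homeobox, housekeeping and NuRD and for 0 of the ribosomal proteins. Actb held 164 and 221 in mdx and 309 and 270 in wild type (-0.60, adjusted p = 0.130), and Eef1a1 701 and 834 against 864 and 770 (-0.09, adjusted p = 0.763). Hdac2 held 708 and 638 against 915 and 812 (-0.36, adjusted p = 0.180), Arid2 328 and 267 against 418 and 436 (-0.53, adjusted p = 0.118). Pbx3, Hnrnpdl and Rpl7 were at -0.12, -0.09 and -0.07 (limma, adjusted p = 0.714, 0.773 and 0.818). No promoter of the necroptosis and TNF receptor list (21 regions), the proteasome and ubiquitin list (27), the cell cycle inhibitors (20) or the dystrophin complex (14) was wide. The nearest of the necroptosis genes named by the rule were Fadd, at 971 bp, and Ripk1, at 796 bp.

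Markers of other muscle cell types were counted as well, and 0 of their promoters was wide. Of the 11 immune marker genes, 0 had a promoter region in the table, and of the 10 endothelial ones, 1 did. The promoter regions of the fibro-adipogenic markers summed to 539 and 587 scaled reads in mdx, against 467 and 407 in wild type. Those of the satellite cell markers summed to 701 and 709 in mdx and 777 and 761 in wild type. The sums of the myofibre, endothelial, glial and pericyte markers overlapped between the groups. Median log2 fold changes were 0.22 for fibro-adipogenic (7 regions), 0.22 for myofibre (4) and 0.28 for pericyte markers (5). They were 0.03 for endothelial (1 region) and -0.28 for glial markers (3). By limma 1 myofibre promoter was called higher and 0 of the other marker promoters were called, where 3.3% of all tested regions were higher. The median was -0.18 for satellite cell markers, against -0.26 at all narrower promoters. The part of the cells sorted in the results at wide promoters was not tested. In sorted cells measured in bulk, fewer cells with an open promoter and a less open promoter in every cell cannot be told apart.

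The Klra10 region spans 164871 bp on chromosome 6, from 130199648 to 130364519, across a cluster of natural killer cell receptor genes, and held 427 and 525 scaled reads in mdx, against 391 and 535 in wild type. It is the only wide promoter over 10 kb, and without it the counts of calls were unchanged and the median was -0.31. Ppp2r3d, with 2264 bp, held 1150 and 1145 in mdx, against 1445 and 1480 in wild type (-0.35, limma, adjusted p = 0.129), and Ncoa2, a nuclear receptor coactivator with 2001 bp, held 974 and 1036 against 1319 and 1310 (-0.39, adjusted p = 0.108). Gad2, a glutamate decarboxylase of neurons, had 2133 bp with 65 and 72 in mdx and 37 and 44 in wild type (0.75, adjusted p = 0.200). The 2 members not tested, Gm3164 and Sirpb1a, had under 10 scaled reads in at least 3 libraries.

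Other regions linked to genes with a wide promoter were mostly lower in mdx as well. There were 51 such regions at 42 genes, of which 41 were tested. Their median log2 fold change was -0.34, and 34 of them were below 0 (82.9%), against 76.4% of narrower promoters and 50.6% of all tested regions. By limma 1 passed as lower and 0 as higher, where 0.881% of all tested regions were lower. With voom 2 passed as lower and 0 as higher, where 448 of all 33161 tested regions were lower and 1550 higher. An unadjusted p under 0.05 was found for 6 of the 41, a share below the 23% of all tested regions. Of these 6, 0 were among the 7 above 0. These regions share the 4 libraries with the wide promoters.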

How the data were processed

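Open chromatin was measured by ATAC-seq in 2 mdx and 2 wild type libraries. Per the submitters' processing notes, Trimmomatic 0.33, STAR 2.5.3a, Picard 2.9.0, MACS2 2.1.0, DESeq and DESeq2 were used with mm10. The sources used here do not say on which reads regions were called. The deposited values are scores, whole numbers that the authors scaled by 1 factor per library. Those factors, 1.38, 1.16, 1.22 and 0.492, were read from the pattern of whole numbers and gave the recovered reads. The factor of wild type replicate 2, 0.492, was read from values that occur too often, the others from whole numbers that never occur. It is less certain than the others, and the recovered reads of that library and voom rest on it. The share of a region that lies in the gene body is a fraction deposited by the authors and was used as given. Because the values are scaled, limma 3.58.1 (R 4.3.3) with a mean trend was run on log2(value + 1) in place of a count test. It covered regions with at least 10 in 2 or more libraries, with Benjamini-Hochberg adjustment over all 33161. Single values were tested by exact permutation (SciPy 1.17.1). The fit was tested on simulated data. Genes were named by rule: the 10 largest called changes in each direction with groups that do not overlap, the 5 widest, the 5 densest, up to 2 per gene list, set names, and regions at the threshold. A few genes are not reported here. The members and lists were chosen with earlier results of these data known. Alternatives covered scaling, filter, pseudocount, voom, width, distance, level, replicate block and each library left out.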

Additional observations from a re-analysis of the deposited data

How the results depend on the processing

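The log2 fold change was below 0 at 521 of 574 wide promoters as reported, at 374 with cyclic loess and at 376 with narrower promoter medians set equal, and the number of calls moved more. Against 2 higher and 39 lower, there were 8 higher and 21 lower with cyclic loess, 7 and 18 with narrower promoter medians set equal, 1 and 263 with the medians of the regions that are no promoters set equal, and 1 and 6 with no filter. Lower calls were 98 at a mean value of at least 50, 61 with a pseudocount of 10, and 77 with voom. With any 1 library left out, 0 wide promoters and 0 of all 33161 tested regions passed by limma, with 1 group then a single library assumed to vary like the other group, and 58 to 155 wide promoters had an unadjusted p under 0.05. With the other library of each group paired, a crossed block chosen after seeing the data, there were 7 higher and 214 lower. The replicate block gave 3 higher and 54 lower. The difference of mdx replicate 1 minus 2 was correlated with that of wild type replicate 1 minus 2 over regions. The correlation was -0.11 over all tested regions and -0.18 at wide promoters. In the labels, libraries of the same number share only that number, and whether any libraries share a batch was not tested. Wide promoters of at least 800 bp gave 84 lower, those of at least 1500 bp 1 higher and 4 lower, and those at or above the median wide level 1 higher and 25 lower. The wide minus narrower difference was -0.04 as reported, 0.23 with cyclic loess, -0.12 at 1500 bp, -0.10 at or above the median wide level, and -0.09 to 0.01 with 1 library left out. The difference in the share of promoter reads was -0.689 percentage points as reported, 0.742 with cyclic loess, -1.13 at 800 bp, -0.105 at 1500 bp and -1.06 to -0.320 with 1 library left out. Among named genes, the log2 fold change turned its sign with cyclic loess for Sp4 (0.0076), Ppp2r3d (0.011), Ripk2 (0.043), Pbx3 (0.098), Tra2b (0.026), Eef1a1 (0.20), Hnrnpdl (0.14), Rpl7 (0.23) and Eny2 (0.37). With narrower promoter medians set equal it turned for Pbx3 (0.11), Tra2b (0.12), Eef1a1 (0.13), Hnrnpdl (0.13), Rpl7 (0.16) and Eny2 (0.22). With the medians of the regions that are no promoters set equal it turned for Klra10 (-0.28), Hspa8 (-0.18) and Ell2 (-0.18), with voom for Klra10 (-0.013), and with scaling by totals for Eny2 (0.042). With 1 library left out, Tra2b ranged from -0.38 to 0.17, Eef1a1 from -0.22 to 0.032, Eny2 from -0.046 to 0.031 and Klra10 from -0.18 to 0.28. Named regions also gained calls. With cyclic loess, Hspa8 and Ell2 passed as higher (limma, adjusted p = 0.0429 and 0.0379). With voom 5 of the 40 named regions gained a call, among them Pdk4 and Sp4. With the medians of the regions that are no promoters set equal 12 of them did. The cause was not tested. Depth limits regions with few reads most, and 7 wide promoters had a mean under 100 scaled reads.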
